A study of Homo sapiens with 54 samples.

Results

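The barcodes described here are the shallow ones of a single-cell RNA-seq experiment on RH4 cells, that is, barcodes that carried few RNA molecules. A barcode was taken as shallow when it had at least 200 detected genes, under 15% of its counts on the mitochondrial (MT-) genes and under 4000 unique molecular identifiers (UMIs, each standing for 1 captured RNA molecule). By this rule 5339 of 24931 barcodes (21.4%) were shallow, 2110 of 11415 in the P3FI-90 library and 3229 of 13516 in the DMSO library. The UMI count itself chose the members, so their low depth is not a finding. Their transcript makeup was set beside that of 3451 P3FI-90 and 3737 DMSO barcodes of 8000 to under 16000 UMIs from the same libraries. For that comparison barcodes were thinned to 1000 UMIs, which left 1471 P3FI-90 and 2740 DMSO members and left out those with fewer.

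RH4 is an established cell line of fusion-positive rhabdomyosarcoma, a childhood muscle-type sarcoma driven by the PAX3-FOXO1 fusion protein. The series tested inhibitors of the histone lysine demethylase KDM3B as blockers of PAX3-FOXO1 activity, and the single-cell experiment asked what P3FI-90 does to individual cells. Cells were collected after 16 h with P3FI-90 (1 µM) or with DMSO, the solvent alone, and each condition was 1 library from 1 experiment. There was therefore no replicate check: no p-value is given, and every interval is an exact 95% interval (Poisson for levels, conditional binomial for folds, Clopper-Pearson for shares) that covers counting error only.

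A droplet library gives 1 barcode to the contents of 1 droplet, which is usually a cell but can also be a damaged cell or a piece of one. The share of mitochondrial transcripts, nuclear RNAs such as MALAT1 and NEAT1, and messages translated at the endoplasmic reticulum (ER) each come from a different part of the cell. The UMI count alone does not say which of these a barcode holds. Doublets were not removed.

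The P3FI-90 library held 156822590 UMIs with a median of 12379 per barcode, and the DMSO library held 145739386 UMIs with a median of 8041.5. In both the lowest barcode had 500 UMIs. Shallow barcodes made up 18.5% of the P3FI-90 library (17.8 to 19.2%) and 23.9% of the DMSO library (23.2 to 24.6%). They carried 2.40% and 5.26% of the UMIs of the P3FI-90 and DMSO libraries. The 2 libraries filled the range under 4000 UMIs differently: the median shallow barcode had 1557 UMIs under P3FI-90 (quartiles 888 and 2579.5) and 2475 UMIs under DMSO (quartiles 1533 and 3303). The order of the shares depended on the limit. With a limit set at 1/3 of each library's own median (4126 UMIs for P3FI-90, 2680.5 UMIs for DMSO), the shares were 18.8% for P3FI-90 and 13.4% for DMSO, and under 3000 UMIs they were 15.4% and 15.6%.

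**Figure D1:**
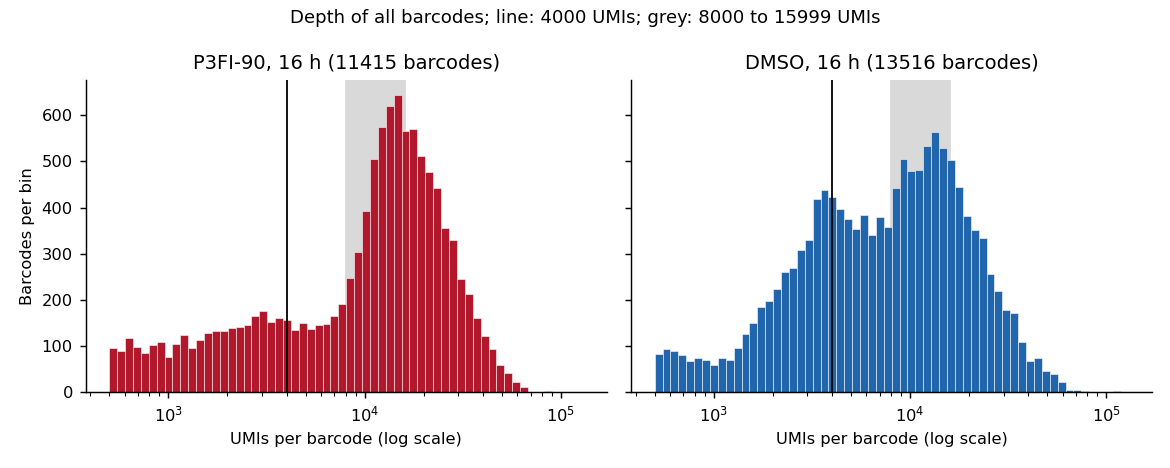
UMIs per barcode (x axis, log scale) against the number of barcodes per bin (y axis) in the P3FI-90 library (left) and the DMSO library (right), before any limit on genes or MT- counts; the vertical line marks 4000 UMIs and the grey band 8000 to under 16000 UMIs. The DMSO library has a lower peak close to 4000 UMIs, and of barcodes within the limits on genes and MT- counts the P3FI-90 library had 917 at 4000 to under 8000 UMIs and the DMSO library 2589.

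Just inside the limit of 4000 UMIs (3500 to under 4000 UMIs) the P3FI-90 library had 156 barcodes and the DMSO library 559, and just outside it (4000 to under 4500 UMIs) they had 125 and 465. FAM211A, one of the genes discussed next, stood at 550 CPM just inside the limit and 489 CPM just outside it in P3FI-90, and at 480 CPM inside and 469 CPM outside it in DMSO (CPM, a gene's UMIs scaled to a common total). C1orf56, another of them, was at 88.7 CPM (52 UMIs) inside and 53 CPM (28 UMIs) outside it in P3FI-90, and at 79.7 CPM inside and 85.8 CPM outside it in DMSO. A total of 34 barcode sequences occurred in both libraries, and 3 of these were shallow in both. A further 638 P3FI-90 and 716 DMSO barcodes under 4000 UMIs had 15% or more MT- counts and were not members.

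The shallow barcodes carried the transcripts of RH4 cells. MYOD1, the myogenic master regulator, was at 237 CPM (212 to 263) in shallow P3FI-90 barcodes and 282 (264 to 300) in P3FI-90 barcodes of 8000 to under 16000 UMIs. In the DMSO library MYOD1 was at 282 (263 to 303) in shallow barcodes and 346 (327 to 365) in the deeper ones. DES, the muscle intermediate filament desmin, was at 298 and 268 CPM in shallow and deeper P3FI-90 barcodes, and at 257 and 263 in shallow and deeper DMSO barcodes. Of the 15 identity genes in the matrix, 10 passed the filter of a mean of at least 20 CPM, and none of these was 2-fold different in either library. Over all genes 0.224% were 2-fold higher and 0.173% lower in P3FI-90, and 0.242% and 0.0173% in DMSO. The median log2 ratio of the 10 identity genes was -0.33 in P3FI-90 and -0.21 in DMSO, against -0.02 and -0.00 over all genes. FGFR4, a receptor gene bound by PAX3-FOXO1, was lower in shallow barcodes in both libraries, at 144 against 191 CPM under P3FI-90 and 168 against 233 under DMSO. The 15 blood cell markers summed to 0 UMIs in shallow P3FI-90 barcodes, where a count of 0 allows up to 3, against 3 UMIs in deeper ones, and to 2 UMIs in shallow DMSO barcodes against 4 in deeper ones. The 12 epithelial and endothelial markers summed to 5 against 13 UMIs in P3FI-90 and 3 against 10 UMIs in DMSO.

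At equal depth a shallow barcode showed about as many genes as a deeper one. After thinning to 1000 UMIs, which left out 639 P3FI-90 and 489 DMSO members with fewer, the median barcode had 609 genes (quartiles 581 and 640) among 1471 shallow P3FI-90 barcodes and 614 (589 and 639) among the deeper P3FI-90 barcodes. In the DMSO library it had 641 (617 and 662) among 2740 shallow barcodes and 637 (610 and 664) among the deeper ones. Before thinning the medians were 840.5 and 3482 genes in shallow and deeper P3FI-90 barcodes, and 1275 and 3474 in shallow and deeper DMSO barcodes.

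Most transcripts kept their place. Of 5795 genes compared (mean of at least 20 CPM), 94.3% in P3FI-90 and 97.3% in DMSO differed by less than 1.5-fold between shallow and deeper barcodes. At least 2-fold higher in shallow barcodes were 13 genes in P3FI-90 (0.224%) and 14 genes in DMSO (0.242%). At least 2-fold lower were 10 genes in P3FI-90 (0.173%) and 1 gene in DMSO (0.0173%). That gene, named after its value was seen, was MMP3, a matrix metalloproteinase, at 11.7 against 28.9 CPM. Scaled to UMIs outside the MT- genes, 11 genes were higher and 13 lower in P3FI-90, and 14 higher and 1 lower in DMSO. The same 7 genes were higher in both libraries (0.121%) and 0 genes (0%) were lower in both. Against barcodes of 4000 to under 8000 UMIs, 0 genes were at least 2-fold higher in both libraries. Across the 5795 genes the log2 ratios of the 2 libraries had a Pearson's r of 0.31, which is a description, since the genes share libraries and are not replicates. Higher in P3FI-90 alone were AURKA, CCNB1, DLGAP5, BCL10, SYNC and UBE2G1. Higher in DMSO alone were ATF2, HIST1H3D, KIF18A, MTRNR2L12, RP11-294J22.6, SHISA9 and TOR1AIP2, named here to complete the count. The difference between the libraries was not tested, and SYNC was higher in both without thinning, after thinning to 2000 UMIs, against 16000 or more UMIs, under 3000 UMIs and with at least 2% MT- counts. These counts followed the filter on low genes: with a mean of at least 5 CPM 19 genes were higher in both libraries, and with at least 50 CPM 4 were.

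The gene that differed most was FAM211A (named LRRC75A in GENCODE), a leucine-rich-repeat gene. It was at 525 CPM (489 to 564) in shallow P3FI-90 barcodes against 70.7 (62.1 to 80.2) in deeper P3FI-90 barcodes, a fold of 7.43 (6.43 to 8.62). In the DMSO library it was at 519 (493 to 547) in shallow barcodes against 99.5 (89.7 to 110.2) in deeper ones, a fold of 5.22 (4.65 to 5.86). The shallow levels of the 2 libraries lay within each other's intervals.

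CTC-425F1.4, a long noncoding RNA gene, had the next largest change, with 57.8 CPM in shallow P3FI-90 barcodes against 10.1 in deeper ones (5.70-fold, 3.80 to 8.71). In DMSO it had 80.3 CPM in shallow barcodes against 17.7 in deeper ones (4.55-fold, 3.44 to 6.08). C1orf56, an open reading frame gene of chromosome 1, was at 73.4 against 16.8 CPM under P3FI-90 (4.37-fold, 3.15 to 6.12) and at 90.9 against 19.5 CPM under DMSO (4.65-fold, 3.57 to 6.12). RP11-538P18.2 (MLF1-DT in GENCODE), a second long noncoding RNA gene, was at 25.8 against 6.37 CPM under P3FI-90 (4.05-fold, 2.34 to 7.19) and at 36.5 against 11.8 under DMSO (3.1-fold, 2.15 to 4.53). CTC-425F1.4, C1orf56 and RP11-538P18.2 were each under 20 CPM in the deeper barcodes of both libraries. They passed the filter on the mean through their shallow levels, so the filter itself favoured a higher value there. Their intervals lay above 2-fold against barcodes of 8000 to under 16000 UMIs. Against those of 4000 to under 8000 UMIs the log2 ratios in P3FI-90 and DMSO were 0.66 and 0.55 for FAM211A, 0.17 and 0.43 for CTC-425F1.4, 1.01 and 0.43 for C1orf56, and 0.38 and 0.75 for RP11-538P18.2.

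MT-ND6, the one mitochondrial message transcribed from the light strand, encodes a subunit of respiratory complex I. It was at 90.4 CPM (75.7 to 107.2) in shallow P3FI-90 barcodes against 33.3 (27.5 to 40.0) in deeper ones, and at 231 (214 to 250) in shallow DMSO barcodes against 85.6 (76.5 to 95.5) in deeper ones. The folds were 2.71 in P3FI-90 and 2.70 in DMSO. ST6GALNAC2, a sialyltransferase gene, was 2.17-fold higher in P3FI-90 (1.36 to 3.47) and 3.81-fold higher in DMSO (2.55 to 5.82). It had 38 and 95 UMIs in shallow barcodes of P3FI-90 and DMSO. In all UMIs of the deeper barcodes it was at 9.89 CPM in P3FI-90 and 9.53 in DMSO. It too passed the filter of 20 CPM through its shallow levels. MYL1, a fast-muscle myosin light chain, was 2.48-fold higher in P3FI-90 (1.88 to 3.27) and 2.10-fold higher in DMSO (1.71 to 2.59). In all UMIs, MYL1 was at 31.5 CPM in P3FI-90 and 36.9 in DMSO at 8000 to under 16000 UMIs. At 16000 or more UMIs it was at 68.1 and 64.5 CPM, near the shallow levels of 71.7 and 86.7. Against 16000 or more UMIs it was not among the genes called in both libraries. Against barcodes of 4000 to under 8000 UMIs the P3FI-90 ratio turned round for MYL1 (log2 -0.50) and was close to 0 for ST6GALNAC2 (log2 -0.075), and MT-ND6 had log2 ratios of 0.51 in P3FI-90 and 0.16 in DMSO.

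CTNNB1, which encodes beta-catenin, and HNRNPH1, which encodes a splicing factor, were also higher in shallow barcodes but by less than 2-fold. CTNNB1 was at 154 against 87.8 CPM under P3FI-90 (1.75-fold, 1.47 to 2.09) and at 204 against 103 under DMSO (1.98-fold, 1.73 to 2.26). HNRNPH1 was at 184 against 122 CPM under P3FI-90 (1.51-fold, 1.29 to 1.76) and at 297 against 176 under DMSO (1.69-fold, 1.52 to 1.88). The 5 marker genes, FAM211A, C1orf56, MT-ND6, CTNNB1 and HNRNPH1, had been picked from these libraries, so their direction is no independent evidence.

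The levels ran with depth on either side of the 4000-UMI limit. In all UMIs of the bins, FAM211A was at 476, 549 and 568 CPM in P3FI-90 barcodes of 1000 to under 2000, 2000 to under 3000 and 3000 to under 4000 UMIs. It was at 346 in those of 4000 to under 8000, 66.1 in those of 8000 to under 16000 and 40.2 in those of 16000 or more UMIs. In DMSO the same 6 bins held 528, 543, 502, 355, 87.2 and 32.8 CPM. The smallest barcodes, of 500 to under 1000 UMIs, had less FAM211A again, 214 CPM under P3FI-90 and 279 under DMSO. CTNNB1 had a similar course, with 208 and 204 CPM at 3000 to under 4000 UMIs in P3FI-90 and DMSO, and 61.8 and 67.1 at 16000 or more.

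**Figure D2:**
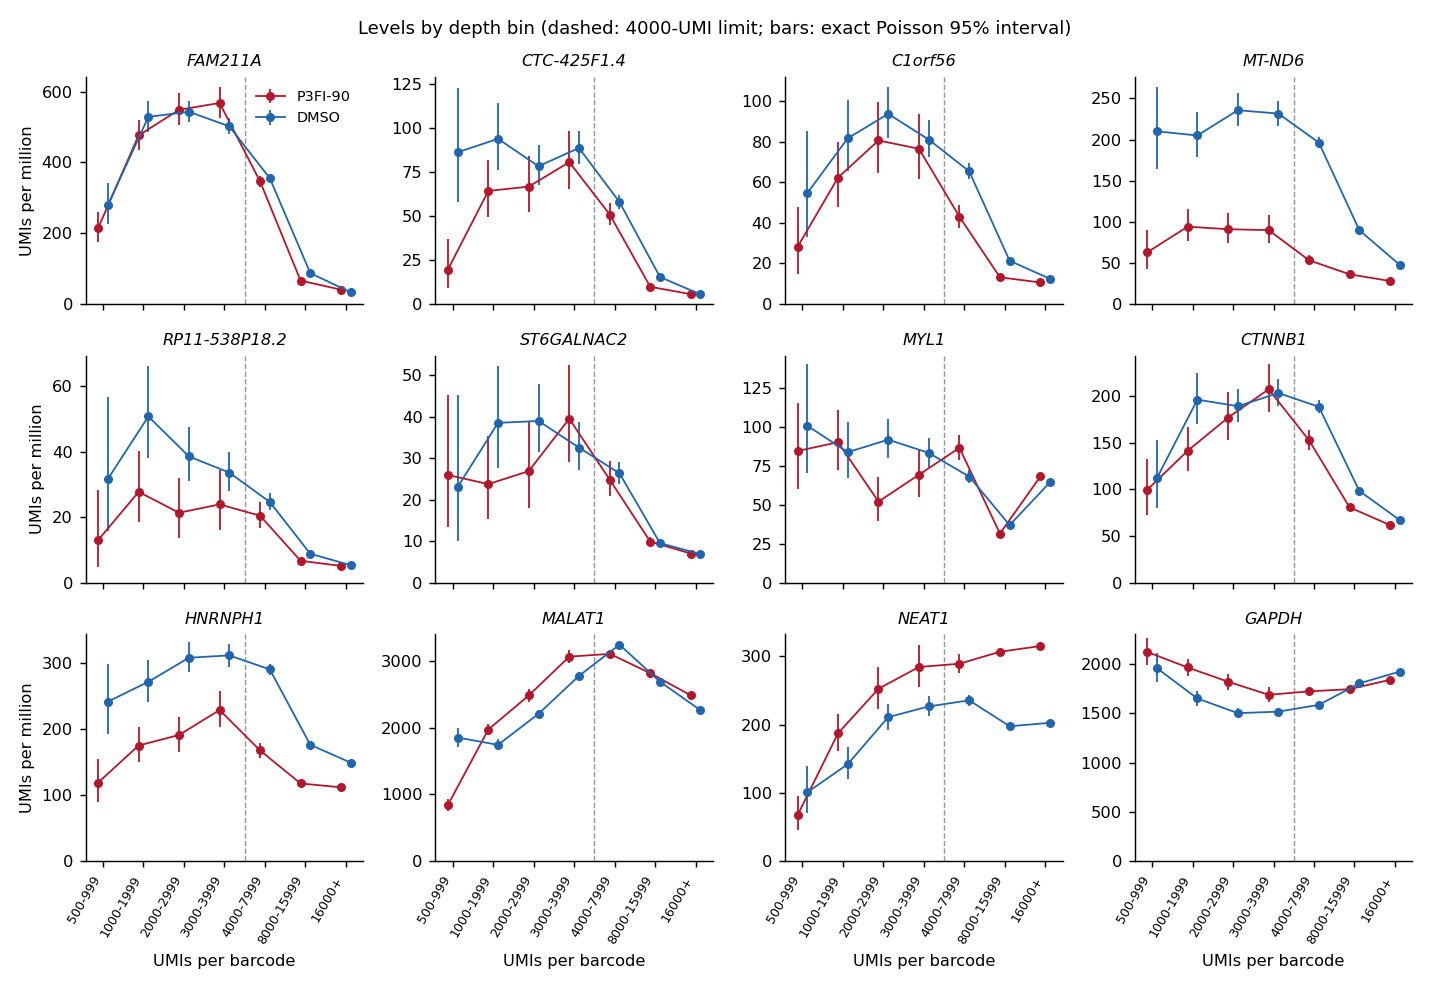
Level of 12 genes in CPM (y axis) by UMIs per barcode (x axis) in the P3FI-90 library (red) and the DMSO library (blue); bars are exact Poisson 95% intervals and the dashed line marks the 4000-UMI limit. FAM211A, CTC-425F1.4, C1orf56, MT-ND6, CTNNB1 and HNRNPH1 are highest between 1000 and under 4000 UMIs and lowest at 16000 or more, and MALAT1 and NEAT1 are lowest under 2000 UMIs.

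The 7 genes shared few of the features looked at. In the GRCh37 annotation used here, FAM211A lies on chromosome 17 from 16344891 to 16395507 on the minus strand and overlaps SNHG29, a small nucleolar RNA host gene on the plus strand. CTC-425F1.4 lies on chromosome 19 from 13054932 to 13055301 on the minus strand, inside the span of CALR, which encodes the ER chaperone calreticulin. C1orf56 lies on chromosome 1 from 151020227 to 151024462 on the plus strand and overlaps CDC42SE1. RP11-538P18.2 overlaps RSRC1 and ST6GALNAC2 overlaps SNHG16, each on opposite strands. With MYL1 and MT-ND6 as the exceptions, 5 of the 7 genes (71.4%) overlapped a gene on the other strand, but so did 61.8% of all tested genes. Counting was by Cell Ranger at its default settings, which take reads on a gene's own strand.

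Of the partners, named here for their position, CALR, CDC42SE1 and RSRC1 were measured and differed by less than 2-fold, and SNHG29 and SNHG16 were not analysed here. CALR was at 754 against 699 CPM in shallow and deeper P3FI-90 barcodes and at 856 against 774 in shallow and deeper DMSO barcodes. CDC42SE1 was at 48.3 against 29.0 CPM in P3FI-90 and 61.7 against 41.7 CPM in DMSO. RSRC1 was at 105 against 84.6 CPM in P3FI-90 and 97.8 against 92.0 CPM in DMSO. The longest annotated transcript of the 7 genes had a median of 1671 nucleotides, against 3772 over all tested genes that matched the annotation. Of the 7, 5 were protein coding (71.4%), against 98.6% of those tested genes. Both noncoding genes, and C1orf56 and ST6GALNAC2, passed the filter through their shallow levels. The filter itself thus bore on these contrasts of length and biotype, which are a description of the called genes only.

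The heavy-strand mitochondrial messages, which encode the other mitochondrial subunits of the respiratory chain and ATP synthase, went opposite ways in the 2 libraries as a sum. Together the 12 took 5.48% of UMIs in shallow P3FI-90 barcodes against 7.35% in deeper ones, and 8.30% in shallow DMSO barcodes against 6.99% in deeper ones. MT-CO2, a subunit of cytochrome c oxidase, was 0.747-fold in P3FI-90 and 1.11-fold in DMSO. MT-ND5, a complex I subunit, was 0.925-fold in P3FI-90 and 1.63-fold in DMSO. Over the 12 the folds ran from 0.684 to 1.13 in P3FI-90, where MT-ATP8 was the one above 1, and from 1.11 to 1.91 in DMSO. The opposite direction did not hold among shallow barcodes of at least 2% MT- counts. In all UMIs the 12 took 7.63% there against 7.32% in deeper barcodes in P3FI-90, and 8.75% against 6.95% in DMSO. The rule caps the mitochondrial share at 15%, so these shares are a description.

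The mitochondrial share split the shallow barcodes into very unlike sets. Under 2% MT- counts were 865 shallow P3FI-90 barcodes (41.0%, 38.9 to 43.1%) and 424 shallow DMSO barcodes (13.1%, 12 to 14.3%). Among barcodes of 8000 to under 16000 UMIs the same held for 18 in P3FI-90 (0.522%) and 16 in DMSO (0.428%). The share under 2% was largest in the smallest barcodes: at 500 to under 1000 UMIs it was 66.2% in P3FI-90 and 47% in DMSO, at 1000 to under 2000 UMIs 43.3% and 18.7%, and at 3000 to under 4000 UMIs 11.4% and 2.23%. The larger share in P3FI-90 thus went with lower depth, but within each of these bins it was also larger in P3FI-90 than in DMSO.

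**Figure D3:**
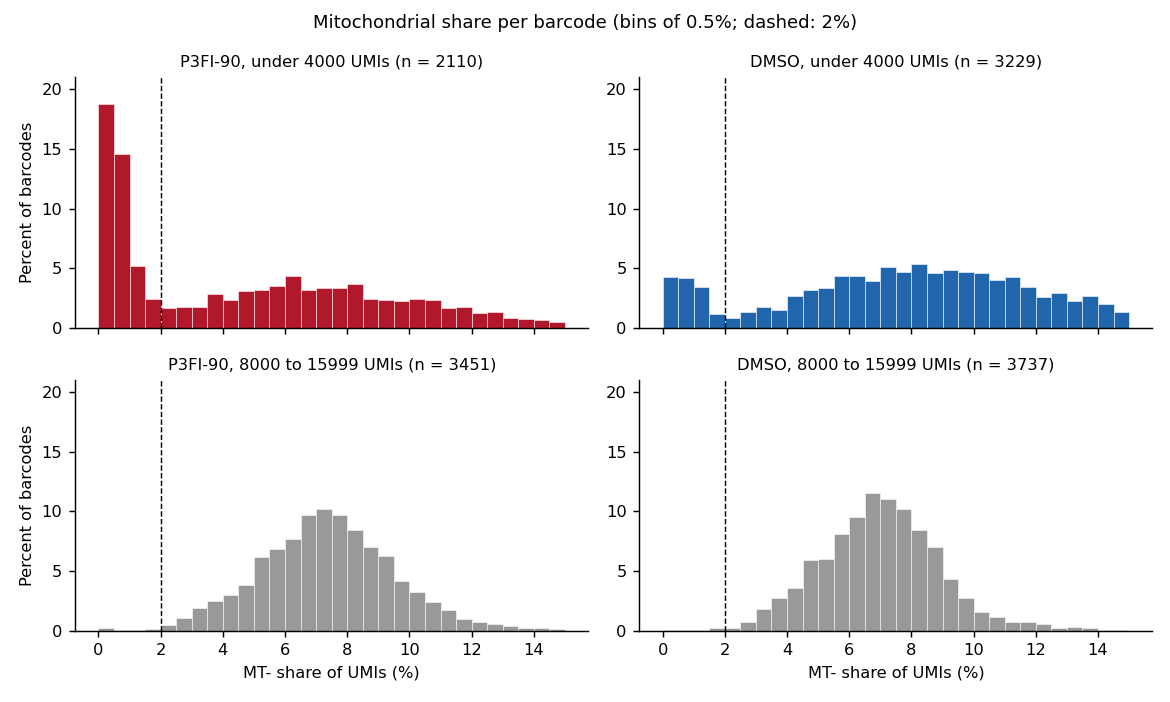
Share of barcodes (y axis, percent) by MT- share of their UMIs (x axis, bins of 0.5%) for shallow barcodes (top) and barcodes of 8000 to under 16000 UMIs (bottom), P3FI-90 left and DMSO right; the dashed line marks 2%. A peak under 2% holds 41.0% of shallow P3FI-90 and 13.1% of shallow DMSO barcodes and is nearly empty in the deeper barcodes.

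The low-mitochondrial barcodes were poor in other RNAs too. This comparison, of shallow barcodes under 2% with shallow barcodes of 5% or more MT- counts (958 in P3FI-90, 2440 in DMSO), was chosen after the values were seen and used all UMIs of 1450 nuclear genes with a mean of at least 100 CPM. At least 2-fold lower under 2% were 94 genes in P3FI-90 (6.48%) and 126 in DMSO (8.69%), and 88 were lower in both libraries (6.07%). At least 2-fold higher were 3 genes in P3FI-90 (0.207%), 8 in DMSO (0.552%) and 0 in both (0%). The 3 in P3FI-90 were AURKA, UBE2C and MAD2L1, the last named after its value was seen. The median gene was 0.32 higher on the log2 scale in P3FI-90 and 0.35 higher in DMSO, and relative to that median 144 genes (9.93%) were at least 2-fold lower in both libraries. The sets also differed in depth, with median UMIs of 1037 against 2105.5 in P3FI-90 and 934 against 2703.5 in DMSO. With 1000 or more UMIs required and each barcode thinned to 1000, 90 genes were lower in both.

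Nuclear RNAs were among the lowest. MALAT1, a long noncoding RNA of nuclear speckles, was at 522 CPM under 2% against 2503 at 5% or more in P3FI-90 (0.209-fold, 0.191 to 0.227), and at 578 against 2254 in DMSO (0.256-fold, 0.228 to 0.287). NEAT1, the scaffold of paraspeckles, was at 23.3 against 302 CPM in P3FI-90 and 11.4 against 219 in DMSO. KCNQ1OT1, an imprinted antisense RNA kept in the nucleus, was at 61 against 955 CPM in P3FI-90 and 68.2 against 1131 in DMSO. Of 11 nuclear-retained RNAs in the matrix, 3 passed the filter, and all 3 were at least 2-fold lower in both libraries, against 6.07% of all genes compared. NEAT1 and KCNQ1OT1 passed it only through their levels at 5% or more, so the filter itself favoured a lower value under 2%. MALAT1 passed at its levels under 2% as well. Summed without the filter, the list took 0.0744% against 0.409% of UMIs in P3FI-90 and 0.0790% against 0.399% in DMSO.

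Messages of the secretory pathway were low as well. Of 9 ER chaperones measured, 7 were at least 2-fold lower in P3FI-90 and 8 in DMSO, against 6.48% and 8.69% of all genes compared. Summed without the filter, the list took 0.180% against 0.495% of UMIs in P3FI-90 and 0.152% against 0.483% in DMSO. HSP90B1, the ER form of HSP90, was at 175 against 831 CPM in P3FI-90 and 155 against 868 in DMSO. HSPA5, the ER chaperone BiP, named after its value was seen, was at 144 against 539 CPM in P3FI-90 and 102 against 465 in DMSO. CALR was at 236 against 931 CPM in P3FI-90 and 250 against 861 in DMSO. Of 22 matrix and secreted proteins in the matrix of counts, 4 passed the filter, and 3 of these were at least 2-fold lower in each library. FN1, which encodes fibronectin, was at 45.8 against 352 CPM in P3FI-90 and 56.8 against 435 in DMSO. ITGB1, an integrin subunit, and TGOLN2, a trans-Golgi protein, were named after their low values were seen. ITGB1 was 0.216-fold in P3FI-90 and 0.162-fold in DMSO, and TGOLN2 was 0.194-fold in P3FI-90 and 0.155-fold in DMSO.

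The markers of shallow barcodes were low in this set. FAM211A was at 64.6 CPM under 2% against 698 at 5% or more in P3FI-90, and at 41.7 against 546 in DMSO. CTNNB1 was at 44 against 211 CPM in P3FI-90 and 45.5 against 203 in DMSO, and C1orf56 at 15.3 against 87.7 in P3FI-90 and 11.4 against 89.6 in DMSO. Shallow barcodes of 2% MT- counts or more had 675 CPM of FAM211A in P3FI-90 and 542 CPM in DMSO. With only barcodes of at least 2% MT- counts on both sides, 10 genes were at least 2-fold higher in both libraries, 6 of the 7 among them. CTNNB1 was another (log2 1.23 in P3FI-90 and 1.05 in DMSO), and MYL1 was below 2-fold in P3FI-90 (log2 0.90).

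The median of all genes was 0.32 higher on the log2 scale in P3FI-90 and 0.35 in DMSO. Median log2 ratios in P3FI-90 and DMSO were 0.37 and 0.48 for cytosolic ribosomal proteins, 0.46 and 0.61 for nuclear-encoded subunits of oxidative phosphorylation, and 0.54 and 0.50 for glycolysis enzymes. Cytosolic ribosomal proteins made up 33.7% of UMIs under 2% against 26.5% at 5% or more in P3FI-90, and 31.7% against 23.2% in DMSO. Nuclear-encoded subunits of oxidative phosphorylation made up 3.44% against 2.56% in P3FI-90 and 3.41% against 2.31% in DMSO. GAPDH, a glycolytic enzyme, was at 2525 against 1552 CPM in P3FI-90 (1.63-fold) and 2817 against 1463 in DMSO (1.93-fold). Of 8 RH4 identity genes measured, 0 were at least 2-fold higher in either library. At least 2-fold lower were 2 in P3FI-90 and 3 in DMSO, against 6.48% and 8.69% of all genes compared. The median log2 ratios of the list were -0.39 and -0.43, below those of all genes. MYOD1 was at 283 against 234 CPM in P3FI-90 and 337 against 284 in DMSO. CDH15, a membrane-bound muscle cadherin, was 0.292-fold in P3FI-90 and 0.260-fold in DMSO. UBE2C, a mitotic ubiquitin-conjugating enzyme, was at 1387 against 647 CPM in P3FI-90 (2.14-fold) and 1125 against 626 in DMSO (1.80-fold). Its list, G2 and mitosis genes, did not move one way: of 22 measured, 2 were at least 2-fold higher and 1 lower in P3FI-90, and 0 higher and 4 lower in DMSO. That list took 0.897% against 0.710% of UMIs in P3FI-90 and 0.901% against 0.877% in DMSO.

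**Figure D4:**
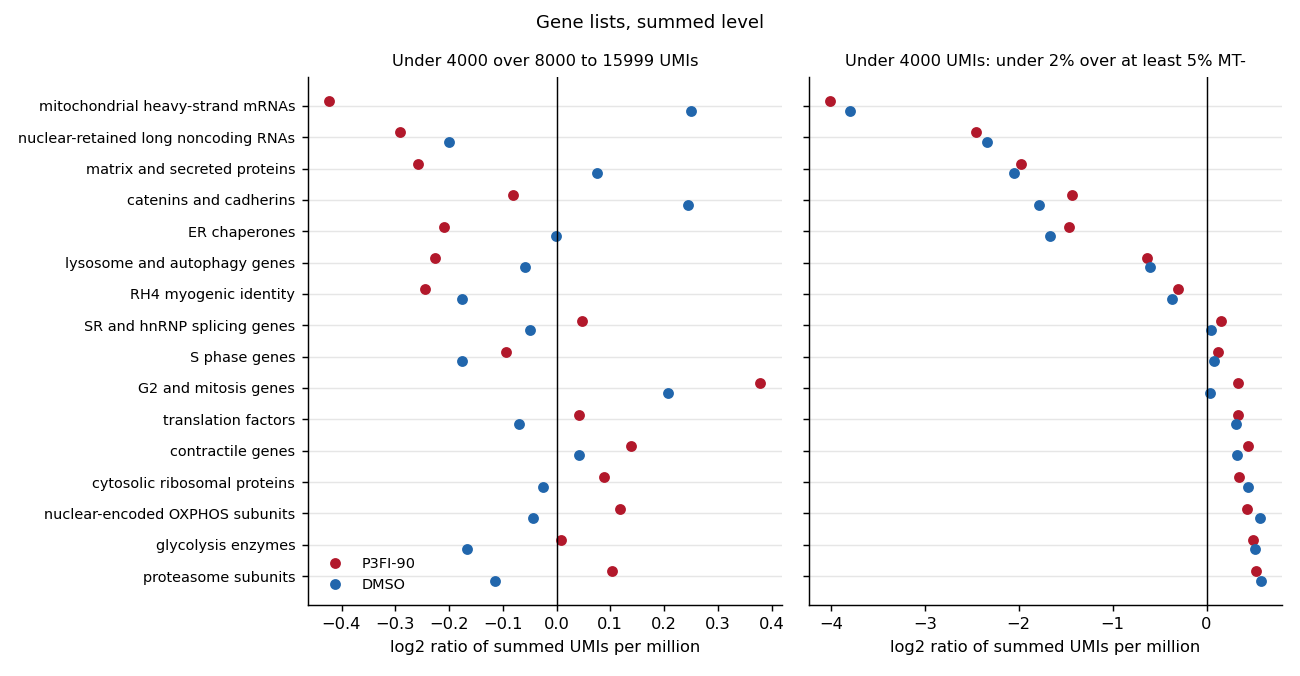
Log2 ratio of summed CPM for 16 gene lists (rows) in P3FI-90 (red) and DMSO (blue). Left, shallow barcodes over barcodes of 8000 to under 16000 UMIs, where all lists lie within 0.5 of 0. Right, shallow barcodes under 2% over those of at least 5% MT- counts. There the nuclear-retained, matrix, cadherin and ER chaperone lists lie below -1 in both libraries. The mitochondrial list does too, which the split itself fixed.

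The genes called low in this set were long. The 86 of 88 that matched the annotation had a median longest transcript of 6109.5 nucleotides and a median of 10 exons. The other 1355 matched genes had medians of 2546 nucleotides and 6 exons. TTN, MACF1 and KMT2A are named here after their values were seen. TTN, which encodes the giant sarcomere protein titin and has one of the longest messages known, was at 135 against 769 CPM in P3FI-90 (0.175-fold) and 102 against 1312 in DMSO (0.078-fold). MACF1, a giant cytoskeletal linker, was 0.207-fold in P3FI-90 and 0.181-fold in DMSO, and KMT2A, a histone methyltransferase, was 0.244-fold and 0.183-fold. Length, site of translation and nuclear retention overlap between these genes, and their parts were not tested. MACF1 and KMT2A passed the filter on the mean only through their levels in shallow barcodes richer in MT- counts. For such genes the filter itself favoured a lower value in this set. TTN passed at its levels in this set as well. The filter thus bore on the contrast of length, which is a description of the called genes only. MTRNR2L8 and MTRNR2L12, nuclear genes nearly identical to mitochondrial ribosomal RNA and named after their values were seen, were also low. Their reads cannot be told apart from mitochondrial ones.

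The rule left out barcodes of the opposite kind. Under 4000 UMIs, 529 P3FI-90 and 430 DMSO barcodes with at least 200 genes had 30% or more MT- counts. MALAT1 was at 11705 CPM in these barcodes in P3FI-90 and 9831 in DMSO, FAM211A at 59.8 and 49.5, and ribosomal proteins made up 8.23% and 7.17% of UMIs. The barcodes between, of 15 to under 30% MT- counts (99 in P3FI-90, 278 in DMSO), had FAM211A at 356 CPM in P3FI-90 and 468 in DMSO. In the bins from 2 to under 15% FAM211A was at 589 to 720 CPM in P3FI-90 and 511 to 580 CPM in DMSO, so both ends of the mitochondrial range were low.

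The number of genes per barcode followed the same axis. At 1000 UMIs the median was 572 genes under 2%, 652.5 at 2 to under 5%, 627 at 5 to under 10% and 600 at 10 to under 15% MT- counts in P3FI-90. In DMSO it was 583.5, 679, 652 and 624 in the same 4 bins. Barcodes of 30% or more, which are not members, had 390 genes in P3FI-90 and 392.5 in DMSO.

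G2 and mitosis genes took 0.780% of UMIs in shallow P3FI-90 barcodes against 0.60% in deeper ones, and 0.892% in shallow DMSO barcodes against 0.773% in deeper ones. Of its 52 measured genes, 3 were at least 2-fold higher in P3FI-90 and 0 in DMSO, with median log2 ratios of 0.37 and 0.22. Over all genes 0.224% and 0.242% were 2-fold higher, and the medians were -0.02 and -0.00. AURKA, a mitotic kinase, was at 162 against 77.7 CPM under P3FI-90 (2.08-fold, 1.74 to 2.49) and at 189 against 116 under DMSO (1.63-fold, 1.43 to 1.86). CCNB1, cyclin B1, was 2.02-fold in P3FI-90 (1.72 to 2.36) and 1.42-fold in DMSO (1.27 to 1.59), and DLGAP5, a spindle protein, was 2.05-fold and 1.66-fold. The S phase list had median log2 ratios of -0.07 in P3FI-90 and -0.13 in DMSO. Barcodes at the deep end, of 16000 or more UMIs, also had a G2 and mitosis share above that at 8000 to under 16000 UMIs, 0.731% against 0.608% in P3FI-90 and 0.865% against 0.783% in DMSO.

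In the other lists few members were 2-fold different between shallow and deeper barcodes. Few of all genes were either: 0.224% were higher and 0.173% lower in P3FI-90, and 0.242% and 0.0173% in DMSO. Of 7 replication-dependent histone genes, 0 were 2-fold higher in P3FI-90 and 1 in DMSO, with median log2 ratios of 0.29 and 0.34. The 7 nuclear-retained RNAs measured had 0 called and medians of -0.39 and 0.00, against -0.02 and -0.00 over all genes. Of the contractile genes, 14 were measured and only MYL1 was 2-fold higher, in both libraries. MYLPF, a fast regulatory myosin light chain, was at 266 against 164 CPM under P3FI-90 and 312 against 167 under DMSO, and TNNT1, slow troponin T, was at 2241 against 2242 under P3FI-90 and 2118 against 2511 under DMSO. ER chaperones, p53 targets, apoptosis genes, NRF2 targets and heat shock chaperones had 0 members 2-fold different in either library. That is near the shares over all genes, so it says little about these lists. Splicing genes as a group did not follow HNRNPH1: 27 SR and hnRNP genes had median log2 ratios of 0.05 in P3FI-90 and -0.04 in DMSO. MEG3, a nuclear noncoding RNA, was 0.614-fold in P3FI-90 and 0.663-fold in DMSO.

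Between the 2 conditions, stress genes led the difference among shallow barcodes, and the 5 highest had counting intervals that overlapped those of the deeper barcodes. Among shallow barcodes 16 genes were at least 2-fold higher under P3FI-90 than under DMSO (0.276%) and 55 were lower (0.949%). Among barcodes of 8000 to under 16000 UMIs 11 were higher (0.19%) and 6 lower (0.104%). The comparisons share no barcodes but share both libraries.

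DDIT3, which encodes the stress transcription factor CHOP, was at 103 CPM (87.6 to 121.1) in shallow P3FI-90 barcodes and 19.3 (14.5 to 25.3) in shallow DMSO barcodes, 5.34-fold (3.88 to 7.45). The fold among deeper barcodes was 5.75 (4.43 to 7.56). DDIT3 was high under P3FI-90 in the low-mitochondrial barcodes too, at 138 CPM (154 UMIs) against 15.2 CPM (only 8 UMIs) in those of DMSO. ASNS, asparagine synthetase, was 4.26-fold higher in shallow barcodes (2.69 to 6.90) and 2.93-fold in deeper ones (2.20 to 3.93). TRIB3, a stress pseudokinase, was 4.05-fold and 2.92-fold higher in shallow and deeper barcodes, GDF15, a stress cytokine, 3.86-fold and 4.04-fold, and DDIT4, an inhibitor of mTORC1, 3.58-fold and 3.38-fold. Of 25 measured genes of the ATF4 and amino acid response, 6 were at least 2-fold higher in shallow barcodes and 7 in deeper ones, with median log2 ratios of 0.68 and 0.66 against -0.10 and -0.07 over all genes.

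The lower genes rested on few UMIs. The 5 lowest were NUAK1, a kinase gene, with 17.0 CPM under P3FI-90 against 54.0 under DMSO (0.315-fold, 0.197 to 0.483), the immediate early gene IER3 (0.332-fold, 0.210 to 0.506), the adaptor gene CRKL (0.343-fold, 0.188 to 0.588), the sialyltransferase gene ST6GAL2 (0.343-fold, 0.179 to 0.612) and PIK3R1, the regulatory subunit of PI3-kinase (0.349-fold, 0.199 to 0.582). Each had 14 to 26 thinned UMIs in shallow P3FI-90 barcodes. The shallow pools also differed in makeup: 442 of 1471 thinned P3FI-90 barcodes had under 2% MT- counts, against 194 of 2740 in DMSO. The genes called low in that set were long, a contrast on which the filter bore. The longest transcripts of NUAK1, CRKL, ST6GAL2, PIK3R1 and IER3 had 5744, 5342, 6857, 6975 and 1350 nucleotides, against a median of 3772 over tested genes. What part this makeup had in the lower genes was not tested. The count of 55 did not hold under other settings: without thinning 22 genes were lower, of which 17 were among the 55, and with barcodes of at least 2% MT- counts only, 32 were lower, of which 20 were among the 55. Scaling moved the split too: TMM scaling gave 23 higher and 26 lower genes, and median-ratio scaling 21 and 30. Of the 16 higher genes, 9 remained without thinning and 13 with at least 2% MT- counts only. Thinned to 500 UMIs the log2 ratio was -0.37 for NUAK1, -0.56 for PIK3R1 and -0.81 for ST6GAL2, and thinned to 2000 it was -0.65 for CRKL, all short of 2-fold. Over all the settings tried, that of DDIT3 ran from 2.15 to 2.79.

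**Figure D5:**
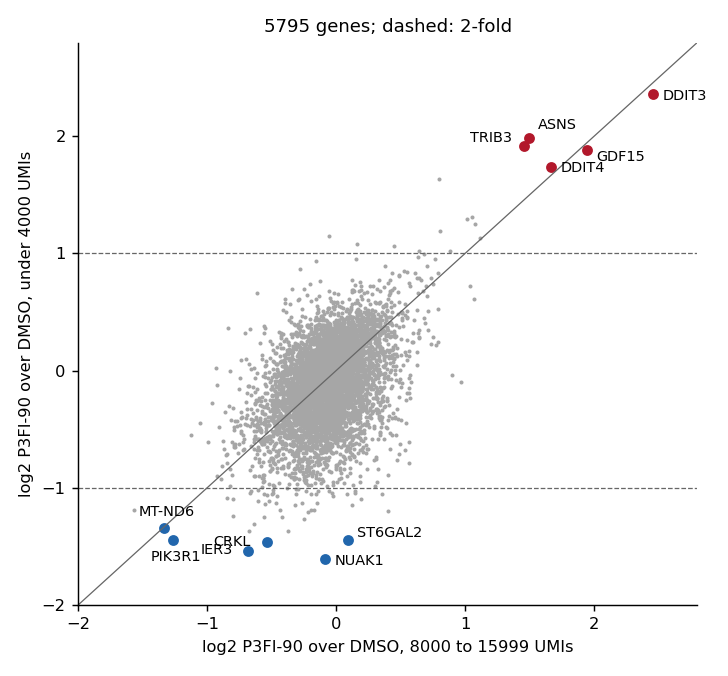
Log2 ratio of P3FI-90 over DMSO for 5795 genes in barcodes of 8000 to under 16000 UMIs (x axis) and in shallow barcodes (y axis); the solid line marks equal ratios and the dashed lines a 2-fold difference among shallow barcodes. DDIT3, GDF15 and DDIT4 lie on the line, while NUAK1 (log2 -1.61 in shallow, -0.08 in deeper barcodes) and ST6GAL2 (-1.45 and 0.09) lie far below it.

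MT-ND6 was lower under P3FI-90 in shallow and in deeper barcodes. It was 0.391-fold in shallow P3FI-90 against shallow DMSO barcodes (0.322 to 0.472) and 0.389-fold among deeper barcodes (0.312 to 0.483). FAM211A was 1.01-fold in shallow barcodes (0.926 to 1.11) and 0.710-fold in deeper ones (0.602 to 0.837). HNRNPH1 was 0.621-fold in shallow barcodes (0.539 to 0.713) and 0.695-fold in deeper ones (0.613 to 0.787).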

How the data were processed

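RH4 cells treated for 16 h were profiled by 10x Genomics single-cell RNA-seq, 1 library per condition. The authors aligned reads to hg19 with Cell Ranger 6.1.2 at default settings and deposited filtered matrices of UMI counts per gene and barcode. Doublets were neither called nor removed here. Barcodes were selected as stated in the report, thinned without replacement to 1000 UMIs and summed, and sums were scaled to the common total of CPM values. Genes with a mean of at least 20 CPM over the 4 pools were compared as log2((a + 1)/(b + 1)), and called at 2-fold. With 1 library per group no test is possible, and intervals (95%, exact) cover counting error only. Depth bins and MT- bins used all UMIs. Genes named were the 5 markers, the 13 MT- mRNAs, up to 10 genes at each end among those 2-fold different the same way in both libraries, the 5 highest and 5 lowest between conditions, MALAT1, NEAT1, and up to 3 members per list by level and 3 by change. Others are said to be named after their values, for their position, to complete a count or as flagged results. The members and lists were chosen with earlier results of these data known.

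Positions and transcript lengths came from GENCODE v44 lifted to GRCh37, matched by gene ID, which is the same build as hg19 but not the authors' annotation. Tested on simulated data of 5761 genes for the P3FI-90 comparison, 97% of 3-fold changes were called and 3 of 5561 unchanged genes; on 5877 genes for DMSO it was 100% and 0 of 5677. Alternatives covered the thinning depth, scaling (edgeR 4.0.16 TMM in R 4.3.3, median ratio), filter, pseudocount, depth limits and MT- limit. Calculations used Python 3.11.15, numpy 2.4.6, scipy 1.17.1 and pandas 2.3.3, and figures matplotlib 3.10.9.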

Additional observations from a re-analysis of the deposited data

Results flagged for a closer look

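A few differences between shallow barcodes and those of 8000 to under 16000 UMIs went opposite ways in the 2 libraries with both counting intervals clear of 1. With 1 library per condition the difference between the conditions was not tested. The 5795 genes were looked at for 1.5-fold changes, and 37 gene lists were looked at too. The summed heavy-strand mitochondrial mRNAs were 0.746-fold in P3FI-90 (0.740 to 0.752) and 1.19-fold in DMSO (1.18 to 1.20). Among shallow barcodes of at least 2% MT- counts they took 7.63% of all UMIs in P3FI-90 and 8.75% in DMSO, against 7.32% and 6.95% in the deeper barcodes of P3FI-90 and DMSO, so the P3FI-90 library then went the same way as the DMSO library. NUAK1 was 0.587-fold in P3FI-90 (0.362 to 0.917) and 1.76-fold in DMSO (1.37 to 2.26). FAM20B, a xylose kinase gene, was 0.499-fold in P3FI-90 (0.292 to 0.815) and 1.60-fold in DMSO (1.16 to 2.20). PPP1R11, a phosphatase inhibitor gene, was 1.54-fold in P3FI-90 (1.14 to 2.08) and 0.621-fold in DMSO (0.476 to 0.805).

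Barcodes under 4000 UMIs with 30% or more MT- counts are not members and entered no comparison of gene levels between shallow and deeper barcodes. MALAT1 was at 11705 CPM in them in P3FI-90 and 9831 in DMSO, and MT-ND6 at 481 in P3FI-90 and 1077 in DMSO.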

How the results depend on the processing

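No paired analysis was possible because each condition was 1 library and no test was made, and for the same reason no replicate could be left out. The share of shallow barcodes was 16.0% in P3FI-90 and 16.7% in DMSO with an MT- limit of 10%, 24.0% and 29.1% with none, 15.4% and 15.6% under 3000 UMIs, and 13.4% in DMSO under 1/3 of its median. The difference of P3FI-90 minus DMSO, -5.41 percentage points as reported, was -0.71 with the 10% limit, -0.18 under 3000 UMIs and 5.4 under 1/3 of the median, where it turned round. With a mean of at least 5 CPM, shallow against deeper barcodes gave 64 higher and 176 lower genes in P3FI-90, 55 and 27 in DMSO, and 19 and 1 in both; P3FI-90 against DMSO gave 52 and 337. With at least 50 CPM these were 7 and 1 in P3FI-90, 5 and 0 in DMSO, 4 higher in both, and 5 and 9 between conditions. Thinning to 500 UMIs gave 24 higher and 58 lower in P3FI-90, 5 lower in DMSO and 138 lower between conditions. Thinning to 2000 gave 6 lower in P3FI-90, 0 in DMSO and 35 between conditions, and no thinning gave 1 and 0 lower, with 9 higher and 22 lower between conditions. A pseudocount of 5 CPM gave 9 higher in DMSO and 23 lower between conditions, TMM scaling 26 lower and median-ratio scaling 30 lower. Against 16000 or more UMIs 23 genes were lower in P3FI-90 and 2 in DMSO. Against 4000 to under 8000 UMIs 26 were lower in P3FI-90, 0 higher and 0 lower in DMSO and 0 higher in both, and the P3FI-90 log2 ratios of ST6GALNAC2 (-0.075) and MYL1 (-0.50) turned round. With shallow set under 3000 UMIs 31 genes were lower in P3FI-90, 6 in DMSO and 93 between conditions, and with an MT- limit of 10% these were 27, 3 and 105. With at least 2% MT- counts, an alternative added after seeing the data, 29 genes were higher in P3FI-90 and 32 lower between conditions. The median MT- share of shallow P3FI-90 barcodes was 2.65% with the 10% limit, 6.40% with none and 7.21% with at least 2%, and that of DMSO 6.35% and 9.08% with the first pair. Relative to the median of all genes, also added after seeing the data, 144 genes were lower under 2% MT- counts in both libraries. The cause of these changes was not tested. Of 764 further comparisons of 56 single-gene values, 546 stayed within the counting interval, and of 922 comparisons of 66 list medians, 888 moved by less than 0.2 on the log2 scale. Genes near 20 CPM rest on few UMIs.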
